A study of Mus musculus with 12 samples.

Results

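The response to IR of mouse cells carrying a guide against Rnf19a was measured by RNA-seq in 6 of the 12 libraries of the series: 3 of untreated sgRnf19a cells (untreated libraries 1, 2 and 3) and 3 of sgRnf19a cells after 24 h of a treatment that the labels call IR and do not spell out (IR libraries D1, D3 and D4). The libraries were taken by their column names, and each gene with enough counts was described, 18183 genes in all. The other 6 libraries hold control cells with the guide sgNC, untreated or after the same 24 h. Their response to IR is compared with that of sgRnf19a cells by an interaction test. They also entered the main fit, and so the gene filter, the scaling and the spread behind each p-value. All cells are labelled B16F10, a mouse melanoma line, and the labels call the sgRnf19a cells Rnf19a deficient. The sources used here do not say whether the cells with the guide are 1 clone or a pool, nor whether the 3 libraries of a group stem from separate cultures; p-values then cover only the spread among libraries, which may be technical. The D columns carry no word for IR and were placed in the IR group because no other group of sgRnf19a samples was left for them. Their numbers are not the replicate numbers of the labels. Of 22 melanocyte markers, the pigmentation genes Tyr, Tyrp1, Mlana, Slc45a2, Oca2 and Gpr143 were listed at 0 in all libraries, and 12 others had enough counts to be tested. Among these, Mitf, the lineage's transcription factor, was at 16.1, 15.7 and 15.8 CPM in the untreated libraries, while the simple epithelial keratin Krt8 was at 211, 198 and 215 CPM. Of 32 epithelial markers, 18 had enough counts to be tested. Summed levels in the untreated libraries were 100 to 124 CPM for melanocyte, 979 to 1008 CPM for epithelial and 2757 to 2928 CPM for fibroblast and mesenchymal markers.

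Cells that find DNA or RNA in the cytosol make type I interferon through sensors such as cGAS, which signals through STING, and RIG-I-like receptors, which signal through MAVS. Interferon binds its receptor on the same or on neighbouring cells, JAK kinases activate STAT proteins, and these act with IRF9 on interferon-stimulated response elements in promoters. The induced genes include the IFIT and OAS antiviral proteins, guanylate-binding proteins, MHC class I genes and T-cell-attracting chemokines. Damage to DNA also engages the p53 pathway and checkpoints that hold cells before mitosis. Rnf19a belongs to the RING-between-RING (RBR) family of ubiquitin ligases.

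The core of the response element (GAAA, any 2 bases, GAAA) was searched on both strands in RefSeq promoter windows (250 bases before to 50 bases after a start, build GRCm38.p6), of which 10923 of 13973 protein-coding genes tested had at least 1. It was present in 3.88% of these 10923 genes. Among genes called higher with IR (a call is an edgeR adjusted p under 0.05) it was present in 6.70% of 2136, among those called lower in 2.59% of 2359, and among the rest in 3.42% of 6428. By size of the rise, the share was 4.24% for log2 fold changes of 0 to 1, 6.70% for 1 to 2, 10.96% for 2 to 3 and 23.6% of 110 genes above 3. Of 67 interferon-induced effector and GTPase genes with a window, 36 held it (53.7%). A looser motif of NF-kB type (GGG, any 5 bases, CC; both strands) was in 71.1% of all genes with a window and in 68.4% of those called higher. These are matches of letters in a window and are not evidence of binding. Of 12 induced genes with a window that were looked up singly, 4 hold the element in the 250 bases before the start and are shown. These 4 belong to the chemokine, effector and GTPase groups described below. The other 8 (Ifnb1, Cd274, Ifi47, Rnf19b, Cgas, Cmpk2, Tap1 and Psmb9) do not hold these letters there. Usp18, Zbp1 and Il15 were also looked up and had no window. Capitals mark the matches, in either orientation, with overlapping matches joined in Isg15. Each sequence is printed 5' to 3' along the gene's strand.
Cxcl10 (chr5:92349013-92349132, minus strand): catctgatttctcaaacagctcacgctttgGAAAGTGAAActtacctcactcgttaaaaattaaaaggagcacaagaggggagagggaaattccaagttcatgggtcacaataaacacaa
Isg15 (chr4:156200819-156200926, minus strand): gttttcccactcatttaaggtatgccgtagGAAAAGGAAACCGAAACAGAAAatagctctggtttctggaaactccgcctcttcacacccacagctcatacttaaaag
Ifit1 (chr19:34640755-34640874, plus strand): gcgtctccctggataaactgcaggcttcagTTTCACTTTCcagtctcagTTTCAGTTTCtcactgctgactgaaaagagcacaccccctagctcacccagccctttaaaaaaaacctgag
Gbp2 (chr3:142620574-142620662, plus strand): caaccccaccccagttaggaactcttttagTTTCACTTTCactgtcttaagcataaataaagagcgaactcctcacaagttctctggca

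The IR libraries held other kinds of RNA than the untreated ones, and D4 lay apart from D1 and D3. Totals were 63.8 to 67.9 M counts in the untreated and 37.9 to 45.6 M in the IR libraries. Ribosomal RNA genes took 0.323% to 0.696% of counts in the untreated libraries and 11.3%, 22.1% and 13.1% in D1, D3 and D4. Long protein-coding transcripts (over 6 kb) exceeded short ones (under 1 kb) in median log2 level by 1.95 to 2.13 in the untreated libraries, and the same difference was -0.33, -1.11 and 0.57 in D1, D3 and D4. On the first principal component of the 6 libraries (57.3% of the variance) the untreated libraries lay between -86.8 and -72.8, D1 at 93.7, D3 at 135.4 and D4 at 10.2, and the second component (18.1%) put D4 alone at 106.9. The share of genes over 2-fold apart was 10.1% to 12.2% between untreated libraries, 17.4% between D1 and D3, 27.0% between D1 and D4 and 36.5% between D3 and D4. The counts over gene lists are therefore given with all 3 IR libraries, without D4 and, since transcript length moved with IR, after a correction for length and GC content (corrected). For single genes that were called, these values are given where they moved the fold change by over 1.5 times or ended the call. The part of RNA composition in each result was not tested beyond that correction.

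**Figure D1:**
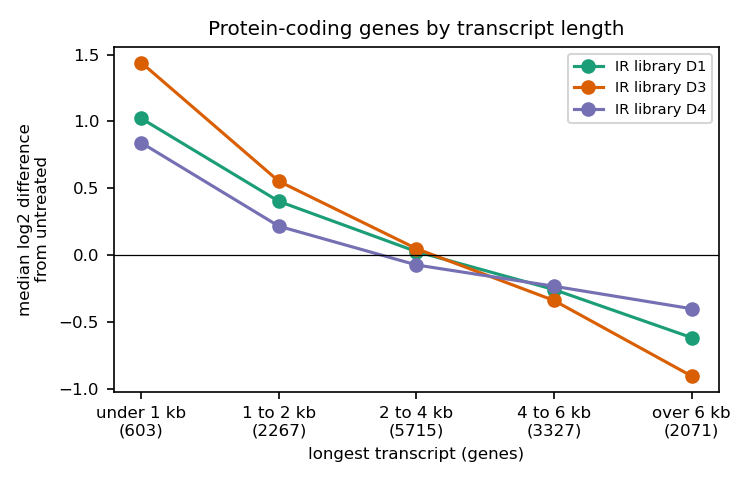
Median log2 difference from the mean of the untreated libraries (y axis) for protein-coding genes grouped by the length of their longest transcript (x axis, number of genes in parentheses), 1 line per IR library. Genes under 1 kb lay above the untreated level and genes over 6 kb below it in each IR library, and the slope was steepest in D3 and shallowest in D4.

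Among protein-coding genes with transcripts under 1 kb, 63.0% were called higher with IR (median log2 fold change 1.36), and among those over 6 kb 49.5% were called lower (median -0.66). The medians of the longest genes were -0.61, -0.90 and -0.40 in D1, D3 and D4.

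With IR, 3266 genes rose (18% of the 18183 tested) and 3209 fell (17.6%). The counts of list members given below are to be read beside these shares. Without D4, 4079 of 19217 rose (21.2%) and 4694 fell (24.4%). Of the genes called with all 3 IR libraries, 3127 of 3266 higher and 3082 of 3209 lower were called the same way without D4, and 0 in the opposite way. With the length and GC correction 2757 of 18159 rose (15.2%) and 3893 fell (21.4%), and 2117 and 2519 of the original calls were among them while 61 turned over. Among 4062 genes called higher without D4 that were tested in both fits, D4 lay above all untreated libraries in 77.4%, among them in 8.37% and below them in 14.2%. For 4682 called lower, D4 lay below all untreated libraries in 78.9%, among them in 9.95% and above them in 11.2%. Its median displacement was 0.59 against 0.87 in D1 and 1.05 in D3 for the first set, and -0.50 against -0.95 and -1.23 for the second.

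**Figure D2:**
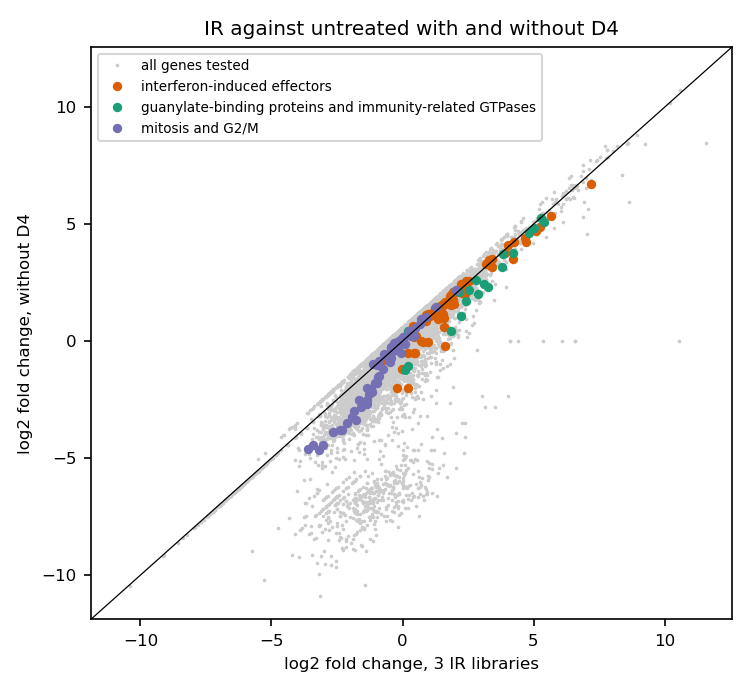
Log2 fold change of IR against untreated cells with all 3 IR libraries (x axis) and without D4 (y axis), 1 point per gene, with interferon-induced effectors, GTPases and mitosis genes in colour. The effectors had a median of 1.61 on the x axis and 1.57 on the y axis, and the GTPases of 2.87 and 2.33. Some interferon-induced genes lie below the diagonal, among them the effectors Samd9l and Slfn9 at -1.99 and -1.99 on the y axis. Many mitosis genes lie lower on the y axis than on the x axis, and a separate cloud of other genes lies far lower still.

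Rnf19a itself (ENSMUSG00000022280, chr15:36239933-36283147, mm10) was at 27.4, 25.6 and 22.6 CPM in untreated libraries 1, 2 and 3 and at 18.1, 11.6 and 37.7 CPM in D1, D3 and D4. D1 and D3 lay below all untreated libraries and D4 above them. No call was made for it (-0.16 ± 0.36 as log2 fold change ± SE, adjusted p = 0.766 by edgeR), and its log2 fold change was -0.77 without D4, where the edgeR adjusted p was 0.0343. An mRNA level does not check a guide that disrupts the reading frame.

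Ifnb1 and Ifna4 rose from near nothing. Ifnb1, which encodes interferon-beta (ENSMUSG00000048806, chr4:88522025-88522774), was at 0.214, 0.143 and 0.400 CPM in the untreated and 23.9, 28.4 and 22.4 CPM in the IR libraries. All 3 IR libraries were close to each other and far above the untreated ones (6.62 ± 0.35 as log2 fold change ± SE, adjusted p = 6.05e-07 by edgeR; 5.72 corrected). Ifna4, an interferon-alpha gene, was at 0.0534, 0.0909 and 0 CPM untreated and 6.33, 4.93 and 6.71 CPM with IR (log2 fold change 6.88; 5.48 corrected). The receptor chains went in both directions: Ifnar1, of the type I receptor, fell by 0.65 on the log2 scale, and Ifnlr1, of the type III receptor, fell by 1.25, while Ifngr2, of the interferon-gamma receptor, rose by 0.67. Over the 8 interferon and receptor genes tested, 3 rose and 2 fell (median 0.24), against 18% and 17.6% of all genes. Without D4 4 rose and 2 fell (median 0.24), and with the length and GC correction 3 rose and 3 fell (median 0.06). In bulk RNA a change in the number of cells expressing a gene and a change in RNA per cell cannot be told apart.

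Of 27 nucleic acid sensing genes tested, 15 rose and 3 fell (median log2 fold change 0.77, against -0.02 over all genes). Without D4 15 rose and 6 fell (median 0.83), and with the length and GC correction 15 rose and 4 fell (median 0.71). Zbp1, a sensor of Z-form nucleic acids, was at 16.3, 14.3 and 16.1 CPM untreated and 219, 184 and 182 CPM with IR, with no overlap (3.65 ± 0.14 as log2 fold change ± SE, adjusted p = 7.78e-08 by edgeR). The cytosolic DNA exonuclease Trex1 rose from 4.72, 4.25 and 2.78 CPM to 35.2, 47.9 and 67.6 CPM (3.68 ± 0.64 as log2 fold change ± SE, adjusted p = 0.0011 by edgeR; 2.997 corrected). Dhx58, the RIG-I-like receptor LGP2, rose by 2.14, and the dNTP hydrolase Samhd1 by 1.27. Cgas, the DNA sensor, was at 15.4, 12.5 and 16.4 CPM and 31.5, 25.6 and 33.1 CPM (1.03 ± 0.27 as log2 fold change ± SE, adjusted p = 0.0122 by edgeR), and its adaptor Sting1 rose by 0.60. The RNA sensors Ifih1 (MDA5) and Tlr3 rose by 1.75 (0.89 without D4) and 2.77 (1.75 without D4), and Tlr3 was at 30.7, 29.8 and 29.4 CPM untreated and at 135, 67.3 and 413 CPM with IR, highest in D4. In the other direction, Mavs, the adaptor of the RNA sensors, fell by 0.74 and the kinase gene Ikbke by 0.89.

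Of 24 JAK-STAT and IRF genes tested, 12 rose and 1 fell (median 0.64), against 18% and 17.6% of all genes. Without D4 16 rose and 3 fell (median 0.72), and with the length and GC correction 15 rose and 2 fell (median 0.68). Usp18, the ISG15 protease that restrains receptor signalling, was at 67.9, 57.1 and 63.3 CPM untreated and 1097, 1085 and 918 CPM with IR (4.04 ± 0.17 as log2 fold change ± SE, adjusted p = 1.23e-07 by edgeR). Irf1 was at 61.8, 62.1 and 56.9 CPM and 332, 306 and 311 CPM, its IR libraries lying close together (2.39 ± 0.13 as log2 fold change ± SE, adjusted p = 8.13e-07 by edgeR). The feedback inhibitor Socs1 rose by 3.14, and Irf7, which amplifies interferon-alpha transcription, by 1.76. Stat2 rose by 1.29 and Irf9 by 0.89. The kinase gene Jak1 was the single fall, from 218, 224 and 217 CPM to 87.7, 55.1 and 163 CPM (-1.11 ± 0.31 as log2 fold change ± SE, adjusted p = 0.0148 by edgeR).

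Of 68 interferon-induced effectors tested, 53 rose and 0 fell, against 18% and 17.6% of all genes. Their median was 1.61, and by library 1.56, 1.43 and 1.76 in D1, D3 and D4. Their summed level was 5697 to 5848 CPM untreated and 22168, 18983 and 25916 CPM in D1, D3 and D4. Without D4 54 rose and 3 fell (median 1.57), and with the length and GC correction 56 rose and 1 fell (median 1.44). Ifit1, whose product binds viral RNA caps (ENSMUSG00000034459, chr19:34640871-34650009), was at 41.1, 35.0 and 38.8 CPM untreated and 1763, 1402 and 2619.9 CPM with IR (5.65 ± 0.33 as log2 fold change ± SE, adjusted p = 1.24e-06 by edgeR). Ifit1bl1 of the same family rose from 0.440, 0.688 and 0.620 CPM to 78.5, 46.9 and 130.4 CPM, and IFIT genes are similar enough in sequence that reads may be shared among them. Isg15, the ubiquitin-like modifier (ENSMUSG00000035692, chr4:156199455-156200796), was at 52.6, 54.9 and 62.7 CPM and 627, 636 and 421 CPM, lowest of the IR libraries in D4 (3.31 ± 0.21 as log2 fold change ± SE, adjusted p = 1.72e-06 by edgeR). With the length and GC correction its log2 fold change was 2.14. The nucleotide kinase Cmpk2 rose by 4.26, Rsad2 (viperin) by 4.68, Oasl1 by 3.43, the GTPase Mx1 by 4.71 and Tor3a by 3.21.

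**Figure D3:**
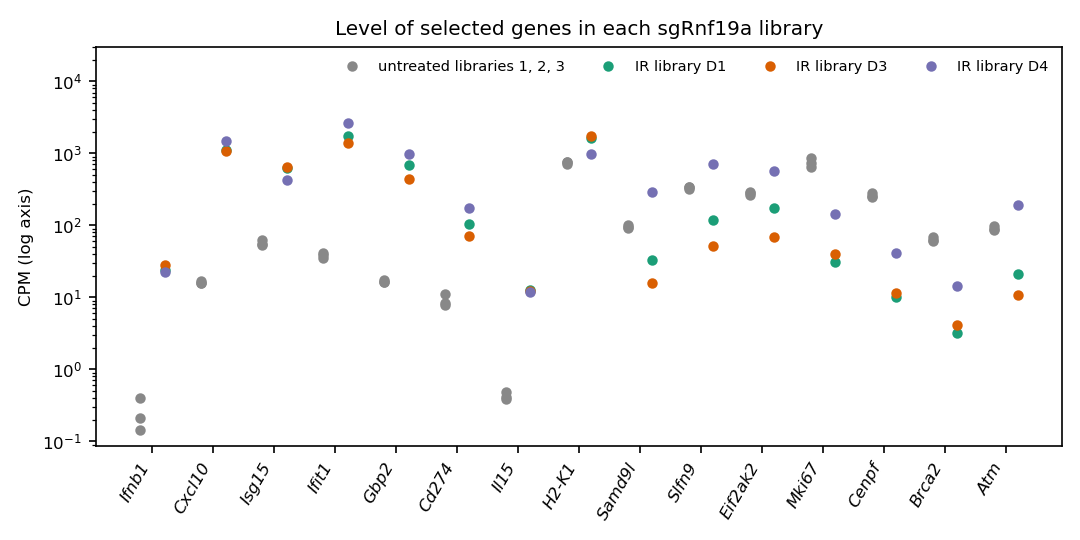
CPM (log axis) of 15 genes in the 3 untreated libraries (grey) and in D1, D3 and D4 (coloured). Ifnb1 to H2-K1 lie higher in each IR library, Samd9l, Slfn9, Eif2ak2 and Atm lie below the untreated libraries in D1 and D3 and above them in D4, and Mki67, Cenpf and Brca2 lie lower in each IR library, least in D4.

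A subset of effectors behaved in another way, chosen after their values were seen. Samd9l, an antiviral translation inhibitor, was at 103, 94.0 and 92.8 CPM untreated and 32.8, 15.8 and 289 CPM with IR. Slfn9, of the Schlafen family, was at 346, 341 and 323 CPM and 119, 51.4 and 714 CPM, and Eif2ak2, the kinase PKR, at 278, 288 and 259.8 CPM and 173, 69.7 and 571 CPM. In each of them D1 and D3 lay below all untreated libraries and D4 above. With all 3 IR libraries none of them passed (log2 fold changes 0.22, -0.19 and -0.02), and without D4 each was called a fall (-1.99, -1.99 and -1.19; edgeR adjusted p = 4.58e-04, 3.58e-04 and 0.00988). Parp14 and Ifi44 were at 149.6, 94.3 and 498 CPM and 149.7, 84.2 and 380.3 CPM in D1, D3 and D4, against 127, 129 and 122 CPM and 119.9, 116 and 124 CPM untreated, and did not pass (they did with the length and GC correction, at log2 fold changes of 1.36 and 1.07). Grouped by longest transcript, the 22 effectors under 2 kb had median differences from untreated of 1.93, 2.004 and 1.60 in D1, D3 and D4, the 29 of 2 to 4 kb 1.97, 1.48 and 2.17, and the 17 of 4 kb and over 0.93, 0.30 and 1.58. D4 was the highest IR library for 4 of the 22 shortest, 19 of the 29 middle and 12 of the 17 longest effectors, and for 41.8% of all genes tested. Transcript length thus moved with which library was high. Its part was not tested beyond the correction.

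The products of guanylate-binding protein and immunity-related GTPase genes attack pathogen-containing vacuoles. Of 19 such genes tested, 15 rose and 0 fell, against 18% and 17.6% of all genes. Their median was 2.87, and by library 2.39, 1.67 and 3.41 in D1, D3 and D4. Without D4 14 rose and 1 fell (median 2.33), and with the length and GC correction 15 rose and 0 fell (median 3.13). D4 was the highest IR library for 16 of the 19, and for 41.8% of all genes tested. Gbp2 (ENSMUSG00000028270, chr3:142620602-142638008) was at 17.3, 16.1 and 16.5 CPM untreated and 686, 440.4 and 968 CPM with IR (5.39 ± 0.35 as log2 fold change ± SE, adjusted p = 2.11e-06 by edgeR). Ifi47 was at 5.48, 5.30 and 6.83 CPM and 245, 209.5 and 239 CPM, nearly level across the IR libraries (5.30 ± 0.20 as log2 fold change ± SE, adjusted p = 7.78e-08 by edgeR). Tgtp2 rose by 4.84 and Igtp by 3.82. Gbp7 was at 30.6, 28.9 and 27.8 CPM untreated and 58.3, 20.1 and 232 CPM with IR, so that D3 lay below the untreated libraries; its call (1.83 ± 0.61 as log2 fold change ± SE, adjusted p = 0.0345 by edgeR) was lost without D4 (log2 fold change 0.43). Members of both families are close copies, and counts may be split among them.

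Of 31 genes of MHC class I and peptide loading tested, 19 rose and 2 fell (median 1.14), against 18% and 17.6% of all genes. Without D4 21 rose and 4 fell (median 1.18), and with the length and GC correction 21 rose and 2 fell (median 0.76). Tapbpl, a peptide editor, was at 8.22, 8.79 and 8.54 CPM untreated and 60.6, 49.3 and 35.2 CPM with IR (2.50 ± 0.19 as log2 fold change ± SE, adjusted p = 6.67e-06 by edgeR). The immunoproteasome subunit Psmb10 rose by 2.15 (1.51 corrected), the proteasome activator subunit Psme1 by 1.04 and the non-classical H2-T22 by 2.05. The heavy chain H2-K1 was at 757, 721 and 761 CPM and 1632, 1767 and 966 CPM, lowest of the IR libraries in D4 (0.96 ± 0.20 as log2 fold change ± SE, adjusted p = 0.00313 by edgeR). B2m, the light chain, was at 734, 744 and 898 CPM and 1823, 1910.3 and 2061 CPM (1.29 ± 0.19 as log2 fold change ± SE, adjusted p = 4.12e-04 by edgeR; 0.66 corrected), and Nlrc5, the class I transactivator, rose by 1.98. The endoplasmic reticulum chaperones Pdia3 and Calr fell by 0.84 and 0.41.

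Of 44 chemokine and cytokine genes tested, 18 rose and 4 fell (median 0.86), against 18% and 17.6% of all genes. Without D4 19 rose and 4 fell (median 0.82), and with the length and GC correction 18 rose and 5 fell (median 0.46). Cxcl10, a ligand of the chemokine receptor CXCR3 on T cells (ENSMUSG00000034855, chr5:92346638-92348882), was at 15.9, 15.9 and 16.8 CPM untreated and 1100.0, 1089 and 1466 CPM with IR, a 75.3-fold rise (6.23 ± 0.26 as log2 fold change ± SE, adjusted p = 1.23e-07 by edgeR). The other CXCR3 ligands moved the same way: Cxcl9 was at 0, 0.0909 and 0 CPM and 9.63, 9.14 and 7.32 CPM, and Cxcl11 at 0.494, 0.714 and 0.827 CPM and 47.5, 52.5 and 40.3 CPM. Ccl5 rose from 3.62, 3.10 and 3.595 CPM to 62.4, 74.7 and 91.1 CPM (4.47 ± 0.28 as log2 fold change ± SE, adjusted p = 1.72e-06 by edgeR; 3.21 corrected), and the monocyte attractant Ccl2 by 3.25 (2.66 corrected). Il15, which sustains NK and memory CD8 T cells, was at 0.387, 0.416 and 0.482 CPM untreated and 12.8, 12.3 and 11.8 CPM with IR (4.84 ± 0.23 as log2 fold change ± SE, adjusted p = 3.33e-07 by edgeR). Il6 rose by 5.94 and the chemerin receptor Ccrl2 by 5.75.

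Among the falls, 3 rested on 1 untreated library. Tnf was at 41.2, 0.662 and 6.05 CPM untreated and 0.534, 1.69 and 1.14 CPM with IR, and Cxcl2 at 38.9, 0.351 and 6.19 CPM and 1.65, 1.31 and 1.06 CPM; untreated library 1 was high for both and the groups overlapped. Their calls (edgeR adjusted p = 0.0453 and 0.0341) were lost without untreated library 1 (log2 fold changes -1.60 and -1.28) and without D4 (edgeR adjusted p = 0.155 and 0.143), and with the correction the edgeR adjusted p were 0.0502 and 0.0505. Csf3 fell by 1.81, a call also lost without untreated library 1 (-0.89), and Clcf1 fell by 1.06. Of 29 NF-kB subunit and feedback genes tested, 7 rose and 6 fell (median 0.01), near the 18% and 17.6% of all genes. The rises included Nfkbie (1.43), Ripk2 (1.16), the adhesion molecule Vcam1 (1.48) and Nfkbia (0.61), the last at 0.12 with the correction and no longer called. Without D4 10 rose and 7 fell (median 0.19), and with the length and GC correction 12 rose and 6 fell (median 0.12).

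Of 25 checkpoint ligands and immune surface molecules tested, 7 rose and 2 fell (median 0.54), against 18% and 17.6% of all genes. Without D4 6 rose and 2 fell (median 0.66), and with the length and GC correction 4 rose and 3 fell (median 0.35). Cd274, which encodes PD-L1 (ENSMUSG00000016496, chr19:29367455-29388095), was at 10.98, 8.38 and 7.88 CPM untreated and 104, 70.1 and 173 CPM with IR, 12.7-fold higher and highest in D4 (3.67 ± 0.32 as log2 fold change ± SE, adjusted p = 2.15e-05 by edgeR; 3.25 without D4, where the edgeR adjusted p was 1.14e-06). Lgals9, encoding galectin-9, rose by 1.48 and Cd47, the signal against phagocytosis, by 1.05 (1.67 corrected). Ido1, the tryptophan-degrading enzyme, was listed at 0 in each untreated library and at 2.78, 2.28 and 2.90 CPM with IR. Nt5e, encoding the adenosine-producing CD73, fell by 1.58 and Vsir, encoding VISTA, by 0.85.

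**Figure D4:**
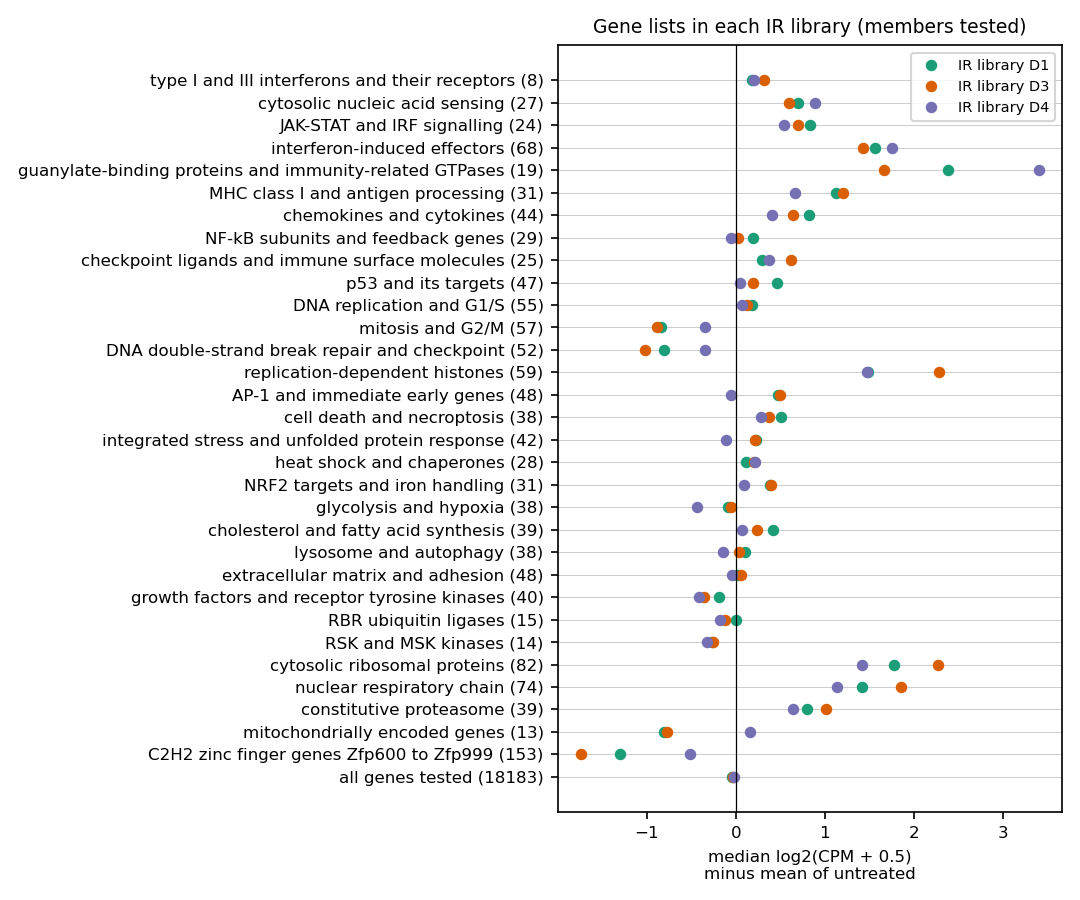
Median over the members of each gene list of log2(CPM + 0.5) minus the mean of the untreated libraries (x axis), 1 point per IR library (number of members tested in parentheses). GTPases, interferon-induced effectors, histones and ribosomal protein genes lie to the right in each library. Mitosis, DNA repair and zinc finger genes lie to the left in each library, least in D4, and mitochondrially encoded genes lie left of 0 in D1 and D3 but not in D4.

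Of 57 mitosis and G2/M genes tested, 28 fell and 6 rose, against 17.6% and 18% of all genes. Their median was -0.71, and by library -0.84, -0.89 and -0.35 in D1, D3 and D4. Without D4 7 rose and 36 fell (median -0.84), and with the length and GC correction 8 rose and 37 fell (median -0.67). Mki67, the proliferation antigen, was at 744, 869 and 656 CPM untreated and 30.7, 39.5 and 145 CPM with IR (-3.40 ± 0.58 as log2 fold change ± SE, adjusted p = 9.70e-04 by edgeR; -4.44 without D4). The kinetochore gene Cenpf was at 253, 278 and 248 CPM and 10.05, 11.7 and 41.5 CPM (-3.62 ± 0.59 as log2 fold change ± SE, adjusted p = 6.99e-04 by edgeR; -4.59 without D4 and -2.99 corrected), and Top2a, topoisomerase II-alpha, at 1413, 1459.9 and 1379 CPM and 221, 137 and 830.3 CPM (-1.84 ± 0.52 as log2 fold change ± SE, adjusted p = 0.0165 by edgeR; -2.99 without D4). D4 was the highest IR library in all 3 and still below the untreated ones. Kif20b fell by 3.17 (-4.65 without D4), Incenp by 1.13, Ncaph by 0.97 and Racgap1 by 0.90. Securin, Pttg1, went the other way (19.4, 19.8 and 21.8 CPM to 96.3, 92.7 and 64.3 CPM; log2 fold change 2.05), as did the kinase gene Cdk1 (1.29). Aurka was at 178, 169 and 169.6 CPM and 169.8, 177 and 181 CPM and did not pass, nor did Plk1 (-0.34); with the correction both were called lower (-0.33 and -0.63).

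Of 52 double-strand break repair and checkpoint genes tested, 25 fell and 3 rose, against 17.6% and 18% of all genes. Their median was -0.58, and by library -0.80, -1.02 and -0.34 in D1, D3 and D4. Without D4 5 rose and 35 fell (median -0.95), and with the length and GC correction 3 rose and 25 fell (median -0.34). Brca2, of homologous recombination, was at 62.0, 68.4 and 59.9 CPM untreated and 3.23, 4.14 and 14.5 CPM with IR (-3.12 ± 0.53 as log2 fold change ± SE, adjusted p = 9.02e-04 by edgeR; -4.12 without D4 and -2.45 corrected). Mdc1, which binds phosphorylated H2AX, was at 115, 117 and 110.3 CPM and 50.5, 52.5 and 49.2 CPM, level across the IR libraries (-1.17 ± 0.10 as log2 fold change ± SE, adjusted p = 2.37e-05 by edgeR). Trp53bp1 fell by 1.48 and Slx4 by 1.05. The checkpoint kinase gene Atm was at 89.9, 97.4 and 85.2 CPM untreated and 21.3, 10.8 and 192 CPM with IR, the IR libraries lying on both sides of the untreated ones (-0.28 ± 0.77 as log2 fold change ± SE, adjusted p = 0.812 by edgeR; -2.50 without D4, where the edgeR adjusted p was 1.12e-04).

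Of 55 replication and G1/S genes tested, 21 rose and 9 fell (median 0.07), against 18% and 17.6% of all genes. The part that rose was larger than over all genes, and members moved in both directions. Without D4 23 rose and 14 fell (median 0.17), and with the length and GC correction 14 rose and 14 fell (median 0.06). The sliding clamp Pcna was at 367, 352 and 439 CPM untreated and 1253, 1652 and 1140.1 CPM with IR (1.80 ± 0.22 as log2 fold change ± SE, adjusted p = 1.49e-04 by edgeR). Rfc3 rose by 1.25 and Gins1 by 1.49 (0.78 corrected), while Rrm2, a subunit of ribonucleotide reductase, fell by 1.08. Of 59 replication-dependent histone genes tested, 49 rose and 0 fell (median 3.34, without D4 50 and 0 with a median of 3.36, corrected 39 and 0 with a median of 1.77). H2bc4 rose by 2.30 (1.68 corrected). H4c14 was at 0.507, 0.338 and 0.138 CPM and 5.82, 16.8 and 8.76 CPM. Histone genes are short and nearly identical to one another, so single members are uncertain.

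Of 47 p53 pathway genes tested, 16 rose and 6 fell (median 0.27), against 18% and 17.6% of all genes. Without D4 22 rose and 8 fell (median 0.36), and with the length and GC correction 15 rose and 12 fell (median 0.17). Trp53 was at 342, 337 and 333 CPM untreated and 358, 386 and 193 CPM with IR, lower in D4 alone, and did not pass. Cdkn1a, the p21 cell cycle inhibitor, was at 191, 179 and 196 CPM and 376, 426 and 214 CPM (0.84 ± 0.21 as log2 fold change ± SE, adjusted p = 0.00926 by edgeR; 1.08 without D4, where the edgeR adjusted p was 2.15e-05). The pro-apoptotic Bax rose by 1.48 (0.69 corrected), Bbc3 (Puma) by 1.46, Phlda3 by 1.37 (0.74 corrected) and Rps27l by 2.32 (1.21 corrected). The call of Sertad1 as higher was lost with the correction (log2 fold change 0.34). Mdm2, the p53 ubiquitin ligase, was at 119, 115 and 109.8 CPM and 62.2, 36.1 and 119 CPM and did not pass (-0.67 ± 0.33 as log2 fold change ± SE, adjusted p = 0.136 by edgeR; -1.23 without D4, where the edgeR adjusted p was 5.79e-04; -0.72 corrected, where it was 0.0383). Its relative Mdm4 fell by 1.90 (-2.80 without D4). Of 38 cell death genes tested, 16 rose and 1 fell (median 0.47). Among the rises were Zbp1, which is also in the nucleic acid sensing list, the death ligand Tnfsf10 (TRAIL, 4.14), Daxx (2.47) and Bid (1.71). Without D4 19 rose and 5 fell (median 0.54), and with the length and GC correction 18 rose and 2 fell (median 0.40).

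Of 48 AP-1 and immediate early genes tested, 18 rose and 5 fell (median 0.40; 0.47, 0.49 and -0.06 in D1, D3 and D4). Without D4 26 rose and 4 fell (median 0.54), and with the length and GC correction 17 rose and 10 fell (median 0.22). D4 was the lowest IR library for 43 of the 48, and for 7184 of all 18183 genes tested. It was also the lowest for 67 of 82 cytosolic ribosomal protein genes and 62 of 74 nuclear respiratory chain genes. Atf3 was at 7.65, 3.53 and 5.28 CPM untreated and 99.3, 101.4 and 85.1 CPM with IR (4.12 ± 0.27 as log2 fold change ± SE, adjusted p = 2.81e-06 by edgeR). Jun rose by 1.97, Mafk by 2.31 and the MAP kinase phosphatase Dusp1 by 1.70. Of 42 integrated stress and unfolded protein response genes tested, 14 rose and 12 fell (median 0.13), against 18% and 17.6% of all genes. Among the rises were Atf4 (1.46), Ppp1r15a (1.92), Nupr1 (1.996) and Ddit3 (1.38, with 0.61 corrected). Without D4 18 rose and 15 fell (median 0.23), and with the length and GC correction 11 rose and 11 fell (median -0.07).

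Most genes of 3 housekeeping machines rose. Of 82 cytosolic ribosomal protein genes tested, 79 rose and 0 fell (median 1.86, without D4 80 and 0 with a median of 2.04, corrected 66 and 1 with a median of 0.97). Their summed level was 30225 to 35070.0 CPM untreated and 86865, 119580.0 and 72642 CPM in D1, D3 and D4. Of 74 nuclear respiratory chain genes, 66 rose and 0 fell (median 1.54, without D4 70 and 1 with a median of 1.67, corrected 46 and 4 with a median of 0.64). Of 39 constitutive proteasome genes, 25 rose and 2 fell (median 0.78, without D4 27 and 3 with a median of 0.91, corrected 19 and 3 with a median of 0.37). Rps12 was at 95.2, 112 and 125 CPM and 377, 509.8 and 517 CPM, Cox7b rose by 1.84 and Psmb2 by 1.71 (0.65 corrected). Of 13 mitochondrially encoded genes, 2 rose and 4 fell (median -0.48, without D4 2 and 10 with a median of -0.82, corrected 0 and 8 with a median of -0.70). The calls of mt-Nd3 (1.02; 0.41 corrected) and mt-Nd5 (-0.69, -0.33 corrected), subunits of complex I, were lost with the correction. Of 34 small nucleolar and Cajal body RNA genes, 2 rose and 0 fell (median -0.40, without D4 2 and 0 with a median of -0.87, corrected 0 and 28 with a median of -3.80). The correction was fitted on protein-coding genes alone and carried over to these RNAs. Their corrected values are therefore uncertain and are not read as falls. Of 153 zinc finger genes Zfp600 to Zfp999, whose C2H2 products are largely transcriptional repressors, 74 fell and 7 rose (median -1.20; -1.30, -1.74 and -0.52 in D1, D3 and D4). Without D4 9 rose and 103 fell (median -1.98), and with the length and GC correction 8 rose and 81 fell (median -1.02). Zfp827 fell by 1.67, and Zfp820 was at 38.1, 42.9 and 37.7 CPM and 0.905, 1.97 and 6.07 CPM (-3.73 ± 0.55 as log2 fold change ± SE, adjusted p = 3.98e-04 by edgeR; -4.83 without D4).

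Over all genes tested 18% rose and 17.6% fell. With all 3 IR libraries, glycolysis and matrix genes lay near these shares. Larger parts of the cholesterol, NRF2 and heat shock lists rose, and a larger part of the growth factor list fell. Of 39 cholesterol and fatty acid synthesis genes tested, 13 rose and 4 fell (median 0.28, without D4 21 and 7 with a median of 0.36, corrected 22 and 5 with a median of 0.37), with rises of Fdft1 (1.51), Msmo1 (1.38) and Cyp51 (1.22). Of 31 NRF2 target and iron genes, 12 rose and 5 fell (median 0.26, without D4 16 and 8 with a median of 0.38, corrected 11 and 8 with a median of 0.03), with rises of Nqo1 (1.70), Prdx1 (1.94) and Sod1 (1.46). Of 28 heat shock genes, 9 rose and 4 fell (median 0.04, without D4 10 and 9 with a median of 0.13, corrected 9 and 8 with a median of -0.03): the chaperonin subunit Hspe1 rose by 1.90 (1.14 corrected) and the co-chaperone Dnajb1 by 1.13, while Hsp90ab1 fell by 0.81. Of 38 glycolysis and hypoxia genes, 5 rose and 6 fell (median -0.21, without D4 10 and 8 with a median of -0.09, corrected 5 and 9 with a median of -0.11). Ldha rose by 0.83 and Pgk1 by 0.54, the latter not called with the correction (0.16). Of 38 lysosome genes 9 rose and 4 fell (median -0.01, without D4 12 and 5 with a median of 0.06, corrected 9 and 8 with a median of -0.10), and the cholesterol transporter Npc2 rose by 1.19. Of 48 matrix and adhesion genes 8 rose and 11 fell (median -0.11, without D4 6 and 13 with a median of 0.01, corrected 11 and 7 with a median of 0.14), and the protease inhibitor Timp1 rose by 1.27 (0.24 corrected), with the call lost in the corrected fit. Of 40 growth factor and receptor tyrosine kinase genes 3 rose and 14 fell (median -0.34, without D4 4 and 17 with a median of -0.33, corrected 6 and 11 with a median of -0.08), with falls of Hbegf (-0.99) and Igf1r (-0.90; -0.23 with the correction, no longer called). The basement membrane gene Nid1 fell by 0.93.

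Of 15 RBR ubiquitin ligase genes tested, the family of Rnf19a, 2 rose and 4 fell, against 18% and 17.6% of all genes (median -0.13, without D4 3 and 5 with a median of -0.17, corrected 3 and 2 with a median of 0.09); 1 of the 4 falls was called with the correction. Rnf19b, its closest relative, was at 32.6, 28.5 and 28.5 CPM untreated and 127, 116 and 72.6 CPM with IR (1.82 ± 0.19 as log2 fold change ± SE, adjusted p = 7.85e-05 by edgeR). Rnf31, the HOIP subunit of the linear ubiquitin ligase, rose by 0.59, and Rnf216 fell by 0.93. Of 14 genes of RSK and MSK kinases and their pathway, 2 rose and 4 fell (median -0.32, without D4 4 and 6 with a median of -0.25, corrected 2 and 4 with a median of -0.14). Rps6ka1, which encodes RSK1, was at 39.8, 37.5 and 43.2 CPM and 33.7, 37.7 and 20.1 CPM and did not pass (-0.40 ± 0.22 as log2 fold change ± SE, adjusted p = 0.185 by edgeR), though it was called lower with the correction (-0.51). Rps6ka3 fell by 1.70 (-2.54 without D4 and -1.04 corrected) and Map2k1 rose by 1.02.

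Of 12 melanocyte marker genes tested 0 rose and 1 fell (median -0.10, without D4 1 and 3 with a median of -0.10, corrected 0 and 2 with a median of -0.08), against 18% and 17.6% of all genes: Mitf fell by 1.25. Of 18 epithelial markers 3 rose and 4 fell (median -0.15, without D4 5 and 4 with a median of 0.00, corrected 3 and 7 with a median of -0.45), among the falls the tight junction gene Tjp1 (-1.28). Of 16 fibroblast markers 2 rose and 2 fell (median 0.55, without D4 1 and 5 with a median of 0.01, corrected 3 and 2 with a median of 0.28). Of 15 immune markers 1 rose and 1 fell (median 0.09, without D4 3 and 1 with a median of 0.30, corrected 1 and 1 with a median of -0.20). Of 9 endothelial markers 0 rose and 1 fell (median 1.35, without D4 0 and 1 with a median of 1.29, corrected 0 and 1 with a median of 1.499), a median above 0 with no member called higher. The summed levels were 91.7 to 117 CPM untreated and 56.5, 111 and 60.1 CPM in D1, D3 and D4 for immune markers, 51.0 to 58.1 CPM untreated and 42.5, 36.5 and 38.8 CPM in D1, D3 and D4 for endothelial markers and 2757 to 2928 CPM untreated and 2379, 2337 and 4207 CPM in D1, D3 and D4 for fibroblast markers, which were highest in D4. For epithelial markers they were 979 to 1008 CPM untreated and 921, 915 and 691 CPM in D1, D3 and D4. Cd3e, Cd3d, Cd3g, Cd8a, Ncr1 and Nkg7 were listed at 0. Their part in the results was not tested.

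Among protein-coding genes with a mean of 2 CPM or more, called with and without D4 and not overlapping between groups, the 8 largest rises also held the stress keratin Krt16 (0.307, 0.325 and 0.152 CPM to 14.8, 27.3 and 14.6 CPM) and Lars2 (165, 294 and 372 CPM to 13468, 30862 and 14265 CPM), which moved with the ribosomal RNA share and is uncertain. The largest falls by the same rule were Zfp820, Cenpf, Mki67, Zfp808 (-3.30; -4.09 without D4), Clca1 (-3.20; -6.37 without D4), the ciliary gene Cep290 (-3.17; -4.59 without D4 and -2.44 corrected), Kif20b and Lrrcc1 (-3.13; -4.35 without D4 and -2.49 corrected), and each fell less in D4 than in D1 and D3. The genes furthest above D1 and D3 in D4 were Adam1a (gap 4.41 on the log2 scale), Atm (3.14), Samd9l (3.12), Ascc3 (2.83) and Tasor2 (2.77). Those furthest below were Mfsd4a (-2.23), Pcdhga10 (-1.70), Rnasek (-1.53), Mapkapk5 (-1.49) and Rusc1 (-1.48). Ascc3 was at 137, 148 and 143 CPM untreated and 23.4, 19.3 and 169 CPM with IR, and Tasor2 at 135, 137 and 122 CPM and 18.5, 11.5 and 129 CPM, so that D4 lay above the untreated libraries in Ascc3 and among them in Tasor2. Neither passed, and without D4 both were called lower (-2.75 and -3.13).

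Whether the IR response differed from that of control cells was tested as an interaction. The difference was higher in sgRnf19a cells for 99 genes (0.544% of 18183) and lower for 25 (0.137%). Of 68 effectors 11 were called higher and 0 lower, and of 19 GTPases 3 and 0. Il15 rose by 4.84 here and by 1.85 in control cells (difference 2.98 ± 0.29 (SE), adjusted p = 0.00492 by edgeR). Cd274 rose by 3.67 and 1.33 (difference 2.34 ± 0.42 (SE), adjusted p = 0.0318 by edgeR), Gbp2 by 5.39 and 2.47 (difference 2.92 ± 0.42 (SE), adjusted p = 0.0162 by edgeR), and Ifit3 by 5.24 and 2.35 (difference 2.89 ± 0.38 (SE), adjusted p = 0.0154 by edgeR). Cgas rose by 1.03 here and had a log2 fold change of -1.41 in control cells (difference 2.44 ± 0.42 (SE), adjusted p = 0.0318 by edgeR). For Ifnb1, Cxcl10 and Isg15 the difference did not pass (-0.13, 0.92 and -0.40). Jun rose less than in control cells (difference -1.47 ± 0.24 (SE), adjusted p = 0.0255 by edgeR). The number of such calls depended heavily on single libraries: it was 375 higher and 125 lower without D4 (2.6% of 19217 genes together), 168 and 206 with the length and GC correction (2.06%), 2073 and 551 without D3, and 5 and 0 without control_IR library 5. The untreated groups already differed in level: Ifit3 was at 2.50, 3.34 and 3.36 CPM in untreated control libraries 1, 2 and 3 and at 22.1, 21.4 and 25.1 CPM in those of sgRnf19a cells, and the desmosome gene Dsp at 0.304, 0.479 and 0.614 CPM and 47.9, 56.6 and 48.1 CPM. The part of these starting levels in the differences was not tested. The median difference over all genes was 0.09.

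**Figure D5:**
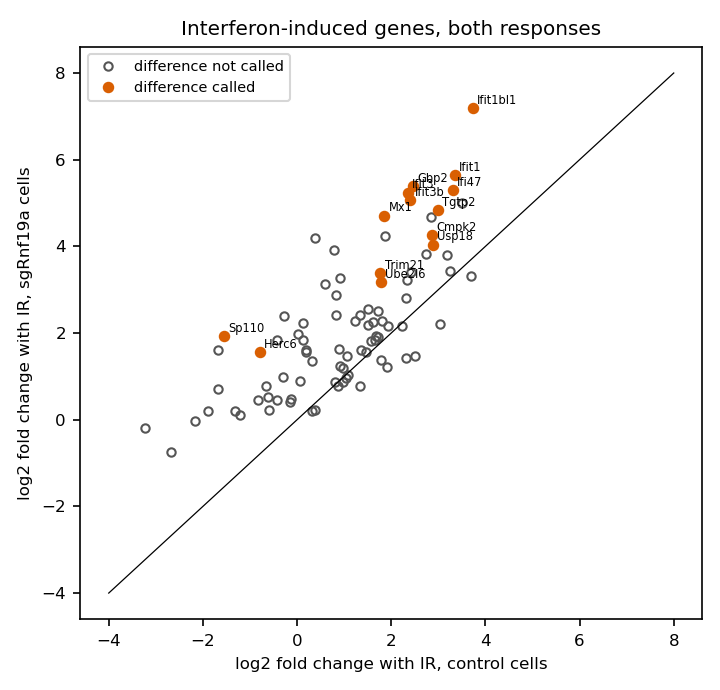
Log2 fold change with IR in control cells (x axis) and in sgRnf19a cells (y axis) for 87 interferon-induced effectors and GTPases, 1 point per gene, with a line of equality. Filled points are the 14 genes whose difference was called, and they lie above the line.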

How the data were processed

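Total RNA was depleted of ribosomal RNA and made into strand-marked libraries read as 37 bp pairs, per the labels' protocols. The submitters' processing notes name mm10, GRCm39, Bowtie2, HTSeq and DESeq2. Their roles, their versions and whether strand was used in counting are not given in those notes, so genes overlapping on opposite strands are uncertain. The authors deposited estimated counts per gene and FPKM values. Among genes with transcripts over 2 kb the deposited count 4 occurred 5958 times, against 989 for 3 and 1000.0 for 5, so a read pair is worth about 4 counts. A further 12 per-sample columns were not used.

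Genes passing filterByExpr (minimum count 10, total 15) entered edgeR 4.0.16 with TMM factors, a mean for each of the 4 groups and all 12 libraries (glmQLFit, robust; glmQLFTest, 2-sided; R 4.3.3). P-values were adjusted by the Benjamini-Hochberg method across every gene tested, with 0.05 as the threshold; the SE is the log2 fold change over the square root of F. CPM are counts scaled to the TMM-adjusted library size. The length and GC correction used splines of 5 degrees of freedom per library on GENCODE M21 transcripts, fitted on protein-coding genes and applied to all genes. Differences by library are of log2(CPM + 0.5). Alternatives in the closing section include DESeq2 1.42.0 and limma 3.58.1 on log2(FPKM + 1) or log2(FPKM + 0.1), keeping genes whose mean FPKM reached 0.5.

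The 37 gene lists and the members described were chosen with earlier results of these data known. Lists can share members, so their counts are not independent: Usp18 is in the JAK-STAT and effector lists, and Irf7 in the sensing and JAK-STAT lists. The p53 list holds Tap1, which was also looked up for the response element and had the smallest p of that list. Named were Rnf19a, fixed genes, the 8 largest changes each way (protein-coding genes with a name, mean of at least 2 CPM, called with and without D4, groups not overlapping), up to 4 called members per list by p, the 5 protein-coding genes each way furthest apart in D4 (mean of at least 5 CPM) and the 4 largest differences each way (at least 2 CPM). Other genes named were chosen after their values were seen. Not every gene that this rule selects is described. Plots were made in matplotlib 3.10.9.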

Additional observations from a re-analysis of the deposited data

Results flagged for a closer look

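The IR response of sgRnf19a cells differed from that of control cells, by the interaction test, for 29 of the named genes (edgeR adjusted p from 0.00492 to 0.0496). On the log2 scale the difference was higher for Zbp1 (1.29), Cgas (2.44), Samhd1 (1.60), Usp18 (1.16), Irf1 (1.10), Ifit1bl1 (3.45), Ifit1 (2.31), Ifit3 (2.89), Mx1 (2.86), Cmpk2 (1.40), Gbp2 (2.92), Ifi47 (1.995), Tgtp2 (1.85), Tapbpl (1.33), Nlrc5 (1.75), Il15 (2.98), Ccl2 (1.40), Il6 (2.86), Ccrl2 (2.36), Cd274 (2.34), Ripk2 (1.14) and Sp110 (3.48). It was also higher for Angpt1 (4.17) and Casp12 (3.21). The vascular growth factor gene Angpt1 was at 0.854, 1.23 and 1.53 CPM untreated and 5.41, 2.97 and 18.3 CPM with IR (log2 fold change 2.88; 1.79 without D4). The difference was lower for Jun (-1.47), Hbegf (-1.28), Relt (-2.24), Aqp3 (-2.13) and Dsp (-2.10). Relt, Aqp3 and Dsp fell in sgRnf19a cells (-0.99, -1.17 and -0.78) against log2 fold changes of 1.25, 0.95 and 1.32 in control cells; with the correction the fall of Dsp was not called (-0.22, edgeR adjusted p = 0.474). In each of the other fits run all 29 differences kept their sign. They were picked because they were called on the same libraries, so a kept sign is not independent support. 29 were still called without D4 and 27 with the length and GC correction, but leaving out each of the 12 libraries in turn left 1 (without control_IR library 5) to 29 called. The median long-minus-short level differed between the IR groups too (-1.57, -1.34 and -1.44 in control IR libraries 1, 4 and 5, against -0.33, -1.11 and 0.57 here), and its part was not tested beyond the length and GC correction.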

How the results depend on the processing

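The count of genes higher with IR was 1810, 1796 and 1721 with limma on log2(FPKM + 1), on log2(FPKM + 0.1) and on log2(FPKM + 1) without a filter, and 1908 with an absolute log2 fold change of at least 1. The count lower was 6304, 6203, 6579 and 1674. When only the 2 sgRnf19a groups were fitted, 2576 genes were higher and 1842 lower. With a filter, FPKM moved the median of all genes to -0.40 or -0.53. Leaving out 1 library gave 2547 to 4079 higher and 2175 to 4694 lower. With DESeq2 size factors, upper-quartile factors, DESeq2, other filters, counts divided by 4 and the length and GC correction these counts stayed within 1.5 times.

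The difference between responses was far less stable. Calls higher and lower numbered 1318 and 357 with DESeq2, 1972 and 795 with the replicate block, 48 and 7 on log2(FPKM + 0.1), 168 and 206 with the length and GC correction, and 207 and 278 with that correction and without D4, an alternative chosen after seeing the data. Lower calls were 15 with no filter, 58 at 1 CPM in 3 libraries and 42 with counts divided by 4. Leaving out 1 of the 12 libraries gave 5 to 2073 higher and 0 to 551 lower. The cause was not tested. Only column numbers 1 and 3 occur in both sgRnf19a groups, and deviations of same-numbered libraries had correlations of -0.08 and -0.01 over 18183 genes. These deviations are from group means that include D4, which lay apart, so the correlations cannot decide whether libraries are paired. Column numbers are not known to pair libraries, and the block is given here alone. With the block 3367 genes were higher and 4232 lower with IR.

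Of 147 named genes called with IR, 0 changed sign under the alternatives run. These genes were called on the same libraries, so kept signs are not independent support. Calls were lost for 16 of the 147 genes when only the 2 groups were fitted. The FPKM fits, in the order given above, lost 15, 16 and 20, and the length and GC correction lost 10. Of 1184 counts of list members called under settings other than FPKM 213 lay over 1.5 times from the reported count, as did 145 of 222 with FPKM; many of these counts are small. Of list medians, 114 of 592 and 96 of 111 moved by over the SD of the IR libraries' medians. Genes not called changed sign as follows (log2 fold change; the cause was not tested): with replicate block (column numbers), Samd9l -1.62, Trp53 0.0754, Adam1a -1.62; with limma on log2(FPKM + 1), Samd9l -1.11, Aurka -0.42, Krt8 -0.27, Mfsd4a -0.0138, Mapkapk5 -0.15, Rusc1 -0.0814; with limma on log2(FPKM + 0.1), Samd9l -1.29, Aurka -0.43, Krt8 -0.28, Mapkapk5 -0.19, Rusc1 -0.20; with limma on log2(FPKM + 1), no filter, Samd9l -1.11, Aurka -0.42, Krt8 -0.27, Adam1a -0.0759, Mfsd4a -0.0138, Mapkapk5 -0.15, Rusc1 -0.0814; with length and GC correction and without D4, Samd9l -0.85, Aurka -0.43, Adam1a -3.14, Pcdhga10 0.15; with length and GC correction, Slfn9 0.00523, Eif2ak2 0.0715, Erap1 0.00789, Aurka -0.33, Atm 0.0756, Krt8 -0.10; with upper-quartile factors, Eif2ak2 0.0652, Trp53 0.0127; with 1 CPM in 3 libraries, Eif2ak2 0.0399; with counts divided by 4, Eif2ak2 0.0319; with DESeq2, Aurka -0.0320; with DESeq2 size factors in edgeR, Aurka -0.00398; with no filter on low counts, Aurka -0.0310. Over the libraries left out in turn, their ranges were Rnf19a -0.77 to 0.13, Samd9l -1.99 to 0.72, Slfn9 -1.99 to 0.29, Eif2ak2 -1.19 to 0.42, Parp14 -0.0507 to 1.35, Ifi44 -0.0459 to 1.13, Trp53 -0.30 to 0.13, Aurka -0.000197 to 0.0535, Atm -2.50 to 0.22, Adam1a -3.48 to 1.68, Mfsd4a -0.56 to 2.90, Pcdhga10 -0.88 to 0.0350. Calls lost when 1 library was left out, with the log2 fold change then: without untreated library 2, Cgas 0.92, Gbp7 1.83, H2-D1 0.80, Calr -0.39, mt-Nd5 -0.60, Clca1 -3.19, Casp12 1.06, Dsp -0.70; without D1, Jak1 -1.02, H2-D1 0.68, Pdia3 -0.76, Tnf -3.53, Cxcl2 -3.71, Top2a -1.55, mt-Nd5 -0.61, Clca1 -2.70, Dsp -0.90; without untreated library 1, Gbp7 1.87, Calr -0.38, Tnf -1.60, Cxcl2 -1.28, Csf3 -0.89, Clca1 -3.26, Rnf31 0.55, Casp12 1.22, Dsp -0.82; without untreated library 3, Gbp7 1.80, Clca1 -3.18, Rnf31 0.55, Dsp -0.82; without D4, Gbp7 0.43, Tnf -3.92, Cxcl2 -3.35, Casp12 0.67; without D3, H2-D1 0.62, Tnf -4.27, Cxcl2 -3.48, mt-Nd5 -0.66, Clca1 -2.67, Relt -0.87, Dsp -0.56. Totals of 37.9 to 67.9 M counts, about 4 counts per read pair, limit genes near 1 CPM or below; counting error alone understates the spread between libraries.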
